A study of Homo sapiens with 6 samples.

Results

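The genes described are 8 genes of cholesterol synthesis and its feedback control, chosen by symbol out of 58381 genes in the count files: SREBF2, INSIG1, HMGCS1, SQLE, IDI1, FDFT1, DHCR7 and STARD4. All 8 were found once each, and all 8 passed the filter on low counts. They were followed in 786-O cells (the labels write the O as a zero), an established clear cell renal carcinoma line, in which every library, controls included, carries the label of a SETD2 knockout (SETD2 is the histone methyltransferase that places trimethylation at H3K36). The groups were vehicle (DMSO), decitabine at 100 nM and decitabine at 300 nM, with 2 libraries each and 6 in all. Vehicle or drug was given daily for 3 days, medium was renewed on day 4 and the harvest came on day 5. Decitabine is a nucleoside drug that enters DNA in place of deoxycytidine and depletes DNA methyltransferases. No library of cells with intact SETD2 was analysed here, the labels do not say whether the knockout is 1 clone, and nothing in them states that libraries of 1 group were grown separately. The p-values therefore rest on a spread between libraries that may be technical.

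Cholesterol is made from acetyl-CoA through mevalonate, the isoprenoids, squalene and a chain of sterols. SREBF2 encodes SREBP2, a transcription factor held in the endoplasmic reticulum membrane by SCAP and the INSIG proteins while sterols are plentiful, and cut and sent to the nucleus when they are scarce. It then switches on the synthesis enzymes, its own gene and INSIG1, whose product closes the feedback loop. In clear cell renal carcinoma, cells are known for storing cholesterol esters and other lipids.

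The 6 libraries held between 89159112 and 96646427 reads assigned to genes. Levels are given in CPM, read counts scaled to a common library size with TMM factors, and each of the 8 genes had at least 861 reads in every library. SETD2 itself was measured at 77.9 and 81.2 CPM with DMSO, at 39.8 and 49.1 CPM at 100 nM, and at 16.4 and 21.7 CPM at 300 nM, and without intact cells these levels cannot check the genotype. Of 12 markers of kidney and clear cell carcinoma, 10 reached 1 CPM in a DMSO library, while CA9 had 0 reads there, and their summed level was 4972.6 to 5835.1 CPM at 300 nM and 3792.4 to 3956.3 CPM at 100 nM, against 3708.9 to 3766.3 CPM with DMSO. PAX8, the kidney lineage factor, had 80.3 ± 0.118 CPM at 300 nM and 254.1 ± 0.264 CPM with DMSO (SD, n = 2 each). The 10 markers of blood, endothelial, liver and stromal cells summed to 33.5 to 34.2 CPM at 300 nM and 29.2 to 30.4 CPM at 100 nM, against 2.40 to 2.72 CPM with DMSO. PDGFRB, a stromal receptor, held 29.3 CPM of this at 300 nM, against 1.13 CPM with DMSO, while CD3E and ALB had 0 reads with DMSO. The part of these marker changes in the results below was not tested. In pooled cells, fewer cells expressing a gene and less RNA per cell cannot be told apart.

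SREBP proteins are known to act beside NF-Y, which binds the letters CCAAT, and Sp1, which binds GC boxes. The stretches that follow show where such letters stand upstream of a RefSeq start (GRCh38.p14) in 6 of the members. They are printed 5′ to 3′ on the strand of the gene. Capitals mark the CCAAT box, the GC box and the sterol response element, each in either orientation.
SREBF2 (chr22:41832955-41833014, plus strand): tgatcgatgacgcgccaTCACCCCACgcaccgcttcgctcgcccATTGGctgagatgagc
INSIG1 (chr7:155297693-155297775, plus strand): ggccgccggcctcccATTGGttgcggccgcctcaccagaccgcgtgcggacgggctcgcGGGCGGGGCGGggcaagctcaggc
HMGCS1 (chr5:43313513-43313577, minus strand): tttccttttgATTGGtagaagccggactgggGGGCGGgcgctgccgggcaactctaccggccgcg
IDI1 (chr10:1049200-1049244, minus strand): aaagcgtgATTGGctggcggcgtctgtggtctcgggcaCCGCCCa
DHCR7 (chr11:71448436-71448493, minus strand): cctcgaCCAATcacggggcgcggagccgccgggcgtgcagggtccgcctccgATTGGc
STARD4 (chr5:111512656-111512705, minus strand): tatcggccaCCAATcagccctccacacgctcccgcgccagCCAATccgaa
The 2 GC boxes shown for INSIG1 share 1 base.

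The letters searched on both strands were CCAAT, found in 34.6% of 35116 promoters of 300 bases each (250 before the start and 50 from it). The GC box was searched as GGGCGG and found in 45.0% of them. The sterol response element was searched as TCACNCCAC and found in 1.13%. Each of the 6 members had CCAAT and a GC box at 1 or more of its starts, and SREBF2 had the sterol element, a site known for the feedback of SREBP2 on its own gene. The shares above are of single promoters, whereas HMGCS1, IDI1 and DHCR7 were searched at more than 1 start. Each of these also had a start without CCAAT, and that of DHCR7 had no GC box either. A match is a description of letters, and its absence from a window says nothing about binding. The most CpG-rich start of each of the 6 held 24 to 48 CpG sites in 300 bases, fewest in STARD4 and most in INSIG1, where the median promoter held 14. That median is over single promoters rather than the richest of each gene, and the other start of DHCR7 held 12. DNA methylation at these starts was not measured.

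At 100 nM, 6 of the 8 genes rose and 0 fell relative to DMSO (edgeR quasi-likelihood test, Benjamini-Hochberg adjusted over all 23160 genes tested, adjusted p under 0.05). None of the 8 was lower at an unadjusted p under 0.05 either, and DESeq2 and limma also called 0 lower. Across all genes 42.7% were called in that comparison, 24.0% higher and 18.7% lower. At 300 nM the group split: SREBF2, SQLE and FDFT1 were still higher than with DMSO, while INSIG1, HMGCS1, IDI1 and STARD4 were lower, against 65.9% of all genes called, 34.8% higher and 31.1% lower. The count of 4 lower falls to 2 (INSIG1 and DHCR7), and that of higher genes becomes 4, when the fit carries offsets for transcript length and GC content, as described after the single genes. Of all genes 32.8% were then lower and 34.0% higher. The median log2 fold change of the 8 was 0.47 at 100 nM and -0.27 at 300 nM, where that of all tested genes was 0.03 and 0.05. With the offsets the medians of the 8 were 0.55 and 0.17, so that the sign at 300 nM turned. Both comparisons share the DMSO libraries. Between the doses, 5 of the 8 were lower at 300 nM than at 100 nM and 0 higher, a count that was also 0 at an unadjusted p under 0.05 and with DESeq2 and limma. Of all genes 43.4% were called between the doses, 23.4% lower and 20.0% higher.

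**Figure D1:**
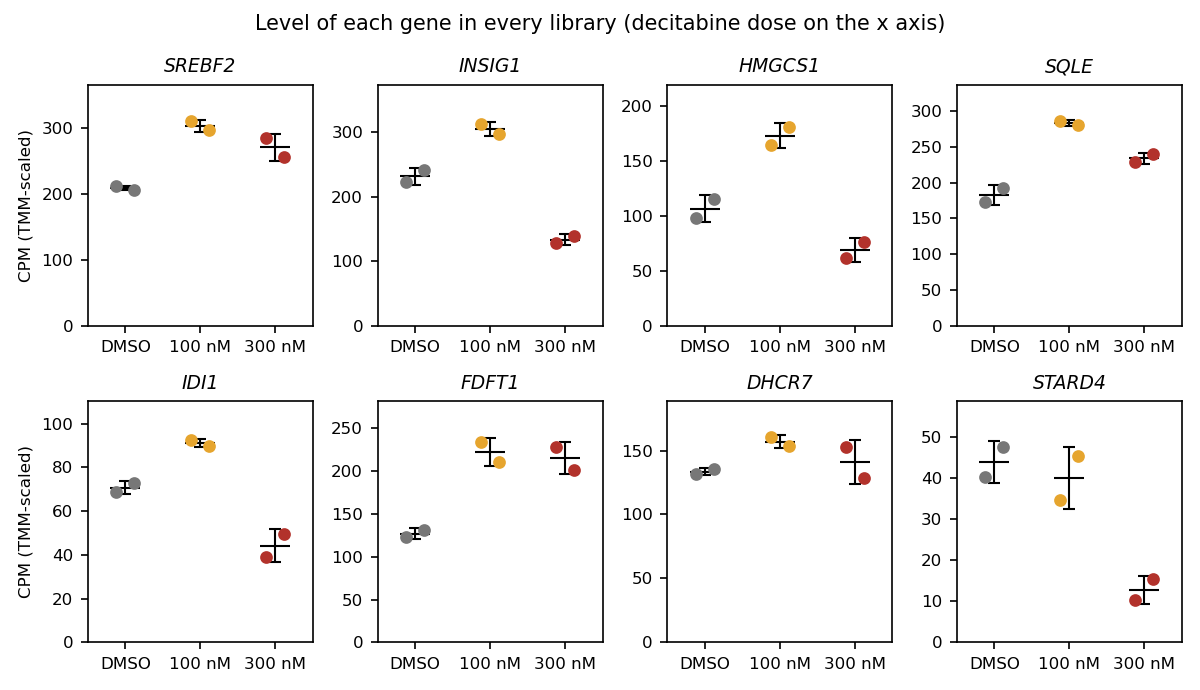
CPM of the 8 genes (y axis, linear from 0) in DMSO, 100 nM and 300 nM libraries (x axis). Points are single libraries, the horizontal mark is the mean and the bars are the SD of 2 libraries. INSIG1, HMGCS1 and IDI1 are highest at 100 nM and below DMSO at 300 nM, FDFT1 is above DMSO at both doses, and STARD4 is lowest at 300 nM.

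SREBF2 (ENSG00000198911.11, GRCh38 chromosome 22, 41833079 to 41907308, plus strand), the factor itself, was measured at 211.9 and 206.8 CPM with DMSO, 310.6 and 297.0 CPM at 100 nM, and 285.9 and 256.9 CPM at 300 nM. The decitabine libraries all lay above both DMSO libraries, and those at 300 nM lay below those at 100 nM. The log2 fold change was 0.54 at 100 nM (SE 0.10, adjusted p = 2.7e-04, edgeR) and 0.37 at 300 nM (SE 0.10, adjusted p = 0.003). Without DMSO replicate 2 the call at 300 nM was lost (adjusted p = 0.057). The difference of 300 nM against 100 nM, log2 -0.16 (SE 0.10), did not pass the test (adjusted p = 0.194), but without 300 nM replicate 1 it was called at -0.24 (adjusted p = 0.036). With the length and GC offsets the 300 nM value against DMSO was 0.11 and not called (adjusted p = 0.082), and that against 100 nM was called at -0.39 (adjusted p = 7.2e-05). The SREBP2 protein, and how much of it is cut, were not measured.

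INSIG1 (ENSG00000186480.12, chromosome 7, 155297776 to 155310235, plus strand) encodes the membrane protein that retains SCAP and SREBP2 in the endoplasmic reticulum. Its levels were 222.1 and 240.8 CPM with DMSO, 312.4 and 297.3 CPM at 100 nM, and 127.7 and 139.4 CPM at 300 nM. The 3 groups did not overlap, and the lowest was 300 nM. Relative to DMSO, INSIG1 rose at 100 nM (log2 0.40, SE 0.10, adjusted p = 0.004) and fell at 300 nM (log2 -0.79, SE 0.10, adjusted p = 2.2e-06). The call at 100 nM was lost without DMSO replicate 1 (adjusted p = 0.102). Relative to 100 nM, the 300 nM level was 0.438 of it (log2 -1.19, adjusted p = 1.5e-07).

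HMGCS1 (ENSG00000112972.14, chromosome 5, 43289395 to 43313512, minus strand), the cytosolic synthase that makes HMG-CoA, stood at 98.1 and 115.3 CPM with DMSO, 165.2 and 181.6 CPM at 100 nM, and 61.6 and 76.8 CPM at 300 nM. Every 100 nM library lay above every DMSO library, and every 300 nM library lay below. It rose by log2 0.70 at 100 nM (SE 0.12, adjusted p = 1.7e-04) and fell by 0.62 on the log2 scale at 300 nM (SE 0.12, adjusted p = 2.6e-04), a direction that turned with the length and GC offsets (0.46). Against 100 nM, the 300 nM libraries were lower by log2 -1.32 (adjusted p = 4.1e-07).

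IDI1 (ENSG00000067064.11, chromosome 10, 1039152 to 1049170, minus strand), the isomerase that interconverts the isoprenoid building blocks, followed the order of HMGCS1 and INSIG1. It had 68.5 and 72.6 CPM with DMSO, 92.6 and 89.9 CPM at 100 nM, and 38.8 and 49.4 CPM at 300 nM. The groups did not overlap. Its log2 change was 0.37 at 100 nM (SE 0.12, adjusted p = 0.020), a call lost without any 1 of DMSO replicate 1, DMSO replicate 2 or 100 nM replicate 1 (adjusted p = 0.164, 0.071 and 0.069). At 300 nM it was -0.68 against DMSO (SE 0.12, adjusted p = 1.1e-04; 0.23 with the offsets) and -1.05 against 100 nM (adjusted p = 3.8e-06).

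FDFT1 (ENSG00000079459.12, chromosome 8, 11795573 to 11839309, plus strand), the squalene synthase that commits isoprenoids to sterols, rose at both doses to like levels. It was at 122.4 and 131.6 CPM with DMSO, 233.9 and 210.2 CPM at 100 nM, and 227.7 and 201.5 CPM at 300 nM. The libraries of the 2 doses overlapped each other, and all 4 lay above DMSO. The fold change was 1.75 at 100 nM (log2 0.81, SE 0.11, adjusted p = 8.1e-06) and 1.69 at 300 nM (log2 0.76, SE 0.11, adjusted p = 7.0e-06). Between the doses the difference was log2 -0.05 (SE 0.10, adjusted p = 0.739), and its sign turned with DESeq2 and limma (0.02 in each).

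SQLE (ENSG00000104549.11, chromosome 8, 124998497 to 125022283, plus strand), the squalene epoxidase that opens the sterol part of the pathway, had 172.6 and 192.5 CPM with DMSO, 286.0 and 280.8 CPM at 100 nM, and 228.2 and 239.4 CPM at 300 nM. The groups did not overlap. It rose by log2 0.63 at 100 nM (SE 0.10, adjusted p = 5.4e-05) and by 0.36 at 300 nM (SE 0.10, adjusted p = 0.004), and the second call was lost without DMSO replicate 1 (adjusted p = 0.140). The lower level at 300 nM than at 100 nM (log2 -0.28, adjusted p = 0.030) was a weak call: it was lost on leaving out DMSO replicate 1, DMSO replicate 2, 100 nM replicate 1, 100 nM replicate 2 or 300 nM replicate 1 (adjusted p = 0.073, 0.073, 0.108, 0.112 and 0.050).

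DHCR7 (ENSG00000172893.15, chromosome 11, 71428193 to 71452868, minus strand), the reductase of the last steps to cholesterol, was not called in any comparison in the fit without offsets. Its levels were 131.4 and 135.4 CPM with DMSO, 160.6 and 153.2 CPM at 100 nM, and 153.1 and 128.8 CPM at 300 nM. The 300 nM libraries spread across the DMSO range. The log2 fold changes were 0.23 at 100 nM (SE 0.11, adjusted p = 0.089) and 0.08 at 300 nM (SE 0.11, adjusted p = 0.530). Without 300 nM replicate 1, and likewise without 300 nM replicate 2, whose loss changes the shared estimate of spread, the 100 nM value of 0.24 was called (adjusted p = 0.014), and without 300 nM replicate 1 the level at 300 nM was called lower than at 100 nM (log2 -0.29, adjusted p = 0.024). With the offsets its sign at 300 nM turned, and it was called lower than with DMSO (log2 -0.50, adjusted p = 4.4e-06) and lower than at 100 nM (-0.56, adjusted p = 9.3e-06).

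STARD4 (ENSG00000164211.12, chromosome 5, 111496033 to 111512590, minus strand), a carrier that moves cholesterol between membranes, had the lowest log2 fold change of the 8 genes at 300 nM in the fit without offsets. It had 40.2 and 47.5 CPM with DMSO, 34.7 and 45.4 CPM at 100 nM, and 10.4 and 15.3 CPM at 300 nM. The DMSO and 100 nM libraries overlapped, and both 300 nM libraries lay well below them. The 100 nM change was log2 -0.13 (SE 0.17, adjusted p = 0.560), and 0.07 without 100 nM replicate 1. At 300 nM it fell to 0.293 of the DMSO level (log2 -1.77, SE 0.17, adjusted p = 1.1e-07), a call lost with the offsets (-0.05). Against 100 nM it was at log2 -1.64 (adjusted p = 1.4e-06).

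On the opposite strand of STARD4, the antisense gene STARD4-AS1, named after its values were seen, had 639 and 687 reads with DMSO, 209 and 236 reads at 100 nM, and 28 and 20 reads at 300 nM. Its log2 fold change was -1.58 at 100 nM (SE 0.20, adjusted p = 6.5e-06) and -4.68 at 300 nM (SE 0.26, adjusted p = 6.8e-11), or -1.38 and -4.06 with the offsets for length and GC content. The recorded counting used no strand, so reads of overlapping genes cannot be told apart where exons are shared. Shared bases were 2.18% of the exons of STARD4, 14.8% of IDI1 (with IDI2-AS1, 0 to 19 reads a library), 14.95% of HMGCS1 (with AC114947.2, 0 to 36 reads), 4.17% of FDFT1 and 3.71% of SREBF2.

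Transcript length and GC content moved with these values. A smooth fit of expression change on exon length and GC content, over 12432 expressed protein-coding genes, gave the trend at each gene's own length and GC. At 300 nM against DMSO that trend was -1.74 (log2) for STARD4, which has 34.2% GC in its longest transcript, -1.09 for HMGCS1 (40.2%) and -0.92 for IDI1 (41.1%). For INSIG1 (46.0%) and SQLE (46.5%) it was -0.03 each, for FDFT1 (48.6%) 0.09, for SREBF2 (57.1%) 0.26 and for DHCR7 (58.3%) 0.58. The median expressed gene had 48.5% GC. The source of the trend was not tested.

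With that trend taken out as offsets, 7 of the 8 genes were called higher at 100 nM (28.2% of all genes) and 0 lower, with STARD4 added at log2 0.46 (adjusted p = 6.7e-04) and HMGCS1 at 1.08. At 300 nM, HMGCS1 turned to log2 0.46 (adjusted p = 2.9e-05) and IDI1 to 0.23 (adjusted p = 0.015), both called higher. STARD4 stood at -0.05 and SREBF2 at 0.11, neither called (adjusted p = 0.665 and 0.082), and DHCR7 was called lower at -0.50 (adjusted p = 4.4e-06). INSIG1 kept its fall (log2 -0.76, adjusted p = 7.8e-08), and SQLE and FDFT1 kept their rises (0.39 and 0.67). In all, 4 members were called higher and 2 lower, where 34.0% and 32.8% of all genes were.

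Calls at 300 nM against DMSO that held in both fits were thus those of INSIG1, SQLE and FDFT1. INSIG1 had 133.5 ± 8.32 CPM at 300 nM and 231.5 ± 13.2 CPM with DMSO (SD, n = 2 each). SQLE had 233.8 ± 7.90 CPM at 300 nM and 182.5 ± 14.1 CPM with DMSO. FDFT1 had 214.6 ± 18.6 CPM at 300 nM and 127.0 ± 6.5 CPM with DMSO. The lower level at 300 nM than at 100 nM held for INSIG1 (log2 -1.12 with offsets), HMGCS1 (-0.62), IDI1 (-0.45), STARD4 (-0.51) and SQLE (-0.22), and SREBF2 (-0.39) and DHCR7 (-0.56) were added to them, each at adjusted p under 0.05 (20.4% of all genes lower).

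**Figure D2:**
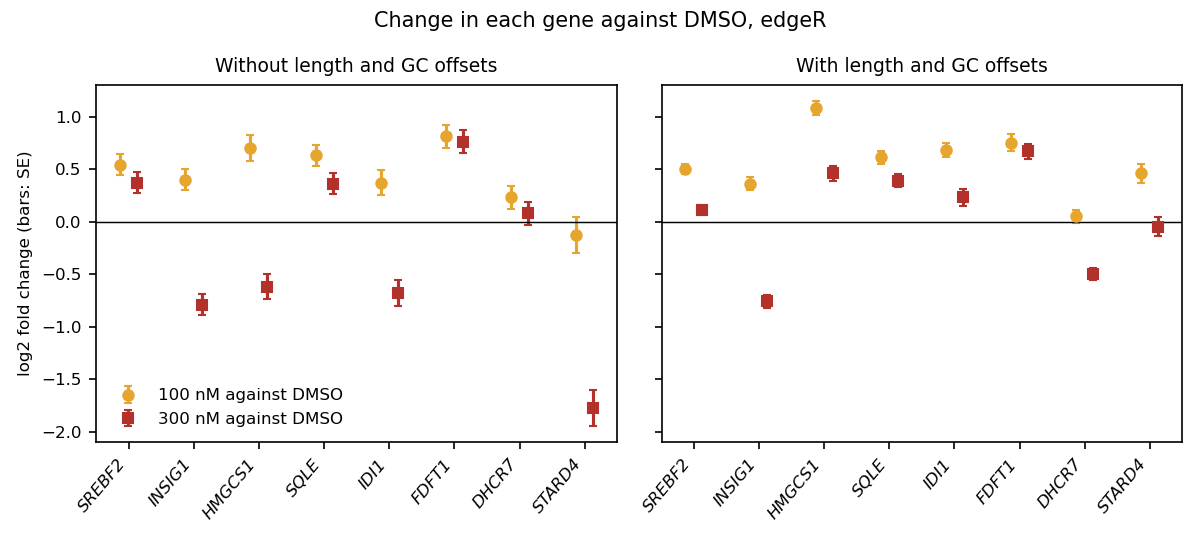
Log2 fold change against DMSO (y axis) of the 8 genes (x axis) at 100 nM (circles) and 300 nM (squares), without offsets on the left and with length and GC offsets on the right; bars are standard errors. At 300 nM HMGCS1 is at -0.62 on the left and 0.46 on the right, and INSIG1 is at -0.79 and -0.76.

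Levels of different genes are compared here as CPM per kb of merged exon. With DMSO, INSIG1 was highest at 63.4 ± 3.63 (SD, n = 2), followed by SQLE at 42.4, DHCR7 at 32.1, SREBF2 at 27.7, FDFT1 at 24.4, HMGCS1 at 22.7, IDI1 at 16.2 and STARD4 at 7.72. FDFT1 (SD 1.25) and HMGCS1 (SD 2.59) did not differ beyond their spread. At 100 nM INSIG1 was at 83.5 and SQLE at 65.8 per kb, and FDFT1, SREBF2, DHCR7 and HMGCS1 lay close together between 36.9 and 42.7. At 300 nM SQLE led at 54.3 ± 1.84, and INSIG1 at 36.6 ± 2.28 was among FDFT1 (41.3 ± 3.57), SREBF2 (35.9 ± 2.72) and DHCR7 (33.9 ± 4.14). HMGCS1, IDI1 and STARD4 closed the order at 14.7, 10.2 and 2.26 per kb.

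The other enzymes of the route were described from lists of 8 genes up to squalene and 13 genes from squalene on, 21 in all with 5 of the members among them. At 100 nM, 12 of the 21 rose and 2 fell, where 24.0% and 18.7% of all genes did. Among the 16 that are not members, 8 rose and 2 fell at 100 nM (median log2 fold change 0.33), and 5 rose and 2 fell at 300 nM (median 0.19), where 34.8% and 31.1% of all genes did, so that the 300 nM counts were no higher than over all genes. With the offsets the counts were 8 and 3 at 100 nM (median 0.15), and 5 and 6 at 300 nM (median -0.05), where the median sign turned. The shares of all genes were then 28.2% higher and 22.3% lower at 100 nM, and 34.0% and 32.8% at 300 nM.

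MVD, which makes isopentenyl diphosphate, rose at both doses (log2 0.83 and 1.10), and so did FDPS, the farnesyl diphosphate synthase (0.40 and 0.45). With offsets MVD kept its rise at 300 nM (0.54), and FDPS was at -0.11 and not called. FDPS has known pseudogene copies whose share of its reads was not measured. Past squalene, ERG28, a scaffold of the demethylation enzymes, rose at both doses (0.58 and 0.60), and NSDHL rose at 300 nM (0.54), with 0.26 at 100 nM not called (adjusted p = 0.101). LBR, the lamin B receptor with sterol reductase activity, fell at both doses (-0.94 and -1.28), as did SC5D, the sterol desaturase (-0.39 and -1.83). With offsets LBR was at 0.13 and not called at 300 nM, and NSDHL at -0.05. SC5D was then at 0.09 and not called at 100 nM (adjusted p = 0.484), and at -0.49 at 300 nM. MSMO1, a sterol oxidase, had log2 0.83 at 100 nM (adjusted p = 2.5e-05) and -0.15 at 300 nM (adjusted p = 0.277), the second turning to 0.99 with offsets. The plot of the 21 enzymes shows more filled points above 0 at 100 nM than at 300 nM.

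**Figure D3:**
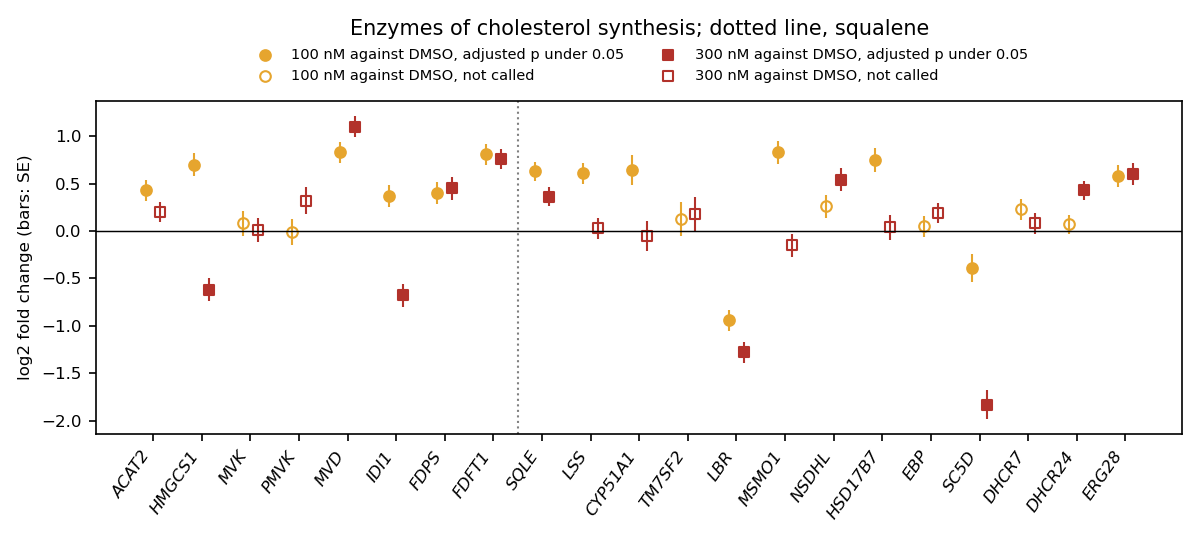
Log2 fold change against DMSO (y axis, bars are standard errors) of 21 enzymes in pathway order (x axis) at 100 nM (circles) and 300 nM (squares); filled symbols passed an adjusted p under 0.05, and the dotted line separates steps up to squalene from later ones. At 100 nM 12 enzymes are called higher and 2 lower, and at 300 nM 7 are higher and 4 lower.

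Across the 21 enzymes the 300 nM change followed GC content, with a Spearman rho of 0.56 over genes that share their libraries, and -0.58 with the offsets. With the offsets these values thus still ran with GC content, in the other direction. For the 8 members the same rho was 0.74 without offsets and -0.10 with them.

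**Figure D4:**
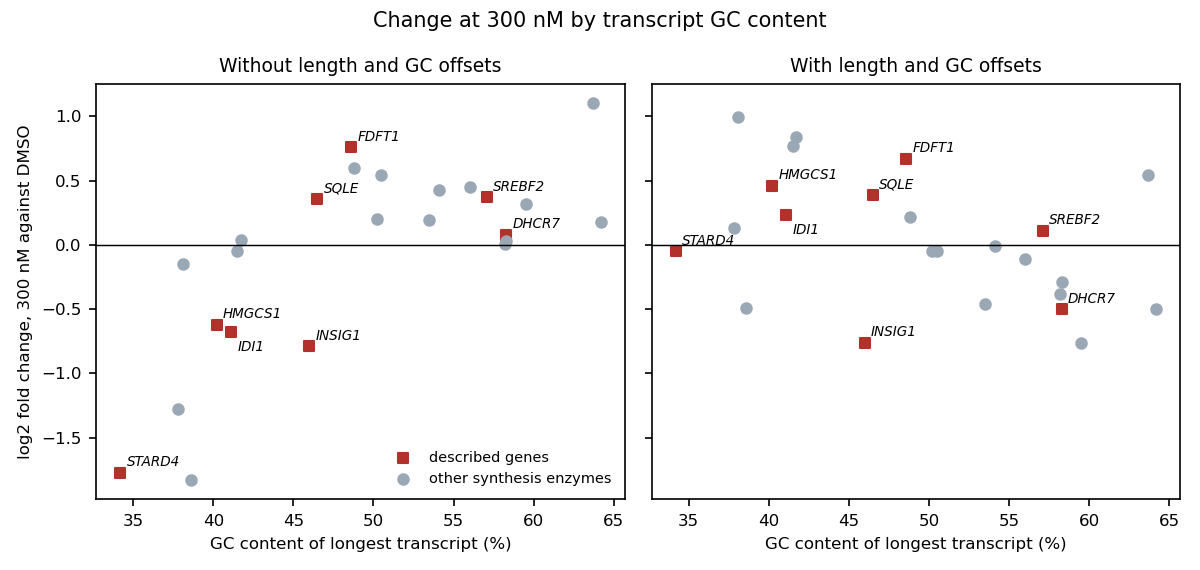
Log2 fold change at 300 nM against DMSO (y axis) by GC content of the longest transcript in percent (x axis) for the 8 described genes (squares) and the other synthesis enzymes (circles), without offsets on the left and with length and GC offsets on the right. STARD4, at 34.2% GC, is at -1.77 on the left and -0.05 on the right, and INSIG1, at 46.0%, is at -0.79 and -0.76.

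Of 18 genes that process SREBP or sense sterols, SREBF2 and INSIG1 among them, 4 rose and 7 fell at 100 nM (24.0% and 18.7% of all genes), and 4 rose and 10 fell at 300 nM (34.8% and 31.1% of all genes). With offsets the balance at 100 nM turned, to 8 higher and 5 lower (28.2% and 22.3% of all genes). The median log2 fold change was 0.14 there, against -0.14 without them. INSIG2, the second INSIG gene, was measured at 5.32 ± 1.34 CPM at 300 nM, against 14.1 ± 0.0745 CPM with DMSO (SD, n = 2 each), a log2 fold change of -1.40 (adjusted p = 1.4e-06). SCAP, the escort of SREBP2, fell at 100 nM (log2 -0.46, adjusted p = 0.004), and at 300 nM it was at -0.17 (adjusted p = 0.200) or, with offsets, -0.62 (adjusted p = 9.4e-07). MBTPS2, the second protease that cuts SREBP, was lower by log2 -1.5 at 300 nM, and SEC24A and SEC24B, coat proteins of the vesicles that carry SCAP, by -0.98 and -0.85. With offsets INSIG2 was at 0.10, MBTPS2 at 0.38 and SEC24A at 0.47, and SEC24B kept its fall at -0.21. The list then held 7 higher and 7 lower genes at 300 nM (34.0% and 32.8% of all genes). Its median was 0.09, against -0.46 without offsets. SREBF1, the paralogue for fatty acid genes, was not called against DMSO (log2 0.21 and -0.20), but with offsets it was called at 0.19 and -0.48.

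Genes for uptake and transport rose in 5 of 16 cases and fell in 4 at 100 nM, and rose in 6 and fell in 5 at 300 nM. These shares lay near those over all genes, 24.0% and 18.7% at 100 nM and 34.8% and 31.1% at 300 nM. NPC1, which moves cholesterol out of lysosomes, had 333.8 and 341.8 CPM with DMSO, 248.1 and 245.2 CPM at 100 nM, and 209.1 and 209.3 CPM at 300 nM. The 3 groups did not overlap, and NPC1 fell at both doses (log2 -0.45 and -0.69, adjusted p = 7.9e-04 and 5.3e-06). GRAMD1A, a sterol transporter, rose at 300 nM (0.99), and VLDLR and OSBPL8 fell (-1.55 and -3.33). With offsets NPC1, GRAMD1A, VLDLR and OSBPL8 kept their call at 300 nM, at -0.49, 0.52, -0.50 and -1.40.

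Among 9 genes of sterol-dependent degradation, 2 fell and 7 were not called at 100 nM, and 3 rose and 4 fell at 300 nM. With offsets 1 rose and 5 fell at 100 nM, and 2 rose and 4 fell at 300 nM. Of all genes 24.0% rose and 18.7% fell at 100 nM, and 34.8% rose and 31.1% fell at 300 nM, without offsets. With them the shares were 28.2% and 22.3% at 100 nM, and 34.0% and 32.8% at 300 nM. MARCH6, the ligase that marks SQLE for destruction, and FAF2, which recruits VCP to the endoplasmic reticulum, fell at 300 nM (log2 -0.74 and -0.40). UBE2J2, a conjugating enzyme of that membrane, and VCP, the ATPase that extracts marked proteins from it, rose (0.53 and 0.41). With offsets MARCH6 turned to 0.90, UBE2J2 stood at -0.03 and was not called, and FAF2 and VCP were at -0.19 and 0.15, both still called. Of 13 tested genes of the LXR, efflux and esterification list, 3 rose and 1 fell at 100 nM and 8 rose and 3 fell at 300 nM. With offsets 7 rose and 1 fell at 300 nM, all against the same shares of all genes. ABCA1, the cholesterol exporter, fell to 79.6 ± 14.3 CPM at 300 nM, against 346.3 ± 19.5 CPM with DMSO (log2 -2.12, and -1.43 with offsets), while APOE, CH25H and NR1H2 rose (1.98, 2.59 and 0.81; with offsets 1.2, 2.07 and 0.15, all still called). APOE and CH25H stayed low, at 2.27 and 1.02 CPM at 300 nM, against 0.573 and 0.168 CPM with DMSO.

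Of 16 fatty acid synthesis genes, which SREBP1 is known to drive and which include INSIG1, 8 rose and 3 fell at 100 nM, and 3 rose and 8 fell at 300 nM, where 24.0%, 18.7%, 34.8% and 31.1% of all genes did. The median log2 fold change was 0.30 and -0.24. With offsets 11 rose and 2 fell at 100 nM (28.2% and 22.3% of all genes). Between the doses 12 of the 16 were lower at 300 nM than at 100 nM (23.4% of all genes), also 12 with offsets (20.4%). At 300 nM, ELOVL6 and LPIN1 fell (-1.69 and -1.33), and MID1IP1 and PNPLA3 rose (1.42 and 1.64), and all 4 kept their call with offsets, at -0.56, -0.85, 0.86 and 1.10. Of 14 genes of the non-sterol branches, 1 rose and 5 fell at 100 nM and 2 rose and 8 fell at 300 nM, against the same shares of all genes. RABGGTB, PGGT1B, GGPS1 and PDSS1 were lower at 300 nM (-2.19, -2.05, -1.32 and -1.04). With offsets they stood at -0.69, 0.04, -0.37 and -1.08, PGGT1B no longer called.

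Likeness of pattern was taken over 9108 protein-coding genes averaging 10 CPM or more, and measured as the Euclidean distance between log2 CPM of the 6 libraries, each gene centred on its own mean. These levels carry no offsets for length and GC content, and likeness with offsets was not measured. INSIG1 and IDI1 were each other's nearest gene, at 0.215, but with offsets they went opposite ways at 300 nM against DMSO (log2 -0.76 and 0.23). The nearest to HMGCS1 was EIF2AK2 (0.169), which was also second for INSIG1 (0.285). SREBF2 was nearest to TCIRG1 (0.063), ACSS2 (0.101) and VGLL4 (0.109). FDFT1 was nearest to RILPL2 (0.109), SQLE to HNRNPLL (0.090), DHCR7 to CYB561D1 (0.108) and STARD4 to MORC3 (0.102).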

How the data were processed

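Poly-A enriched RNA of 6 libraries was used. Read counts per gene were deposited by the authors as whole numbers without normalization, made with STAR, SAMtools and featureCounts 1.5.0-p3 on GENCODE v28, per the file headers and the submitters' processing notes. The recorded commands carry no paired-end or strand option, and 70.0% to 74.4% of the counts between 1 and 10 were even. The notes name hg19 and GRCh37, but all 56933 genes with the same versioned identifier in GENCODE v29 had the same GRCh38 coordinates, so coordinates are GRCh38. Symbols came from GENCODE v29 for 58261 genes. The deposited log2 matrix holds the authors' variance-stabilised values, whose settings are not stated.

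Counts were filtered with filterByExpr (23160 genes kept) and tested with edgeR 4.0.16 (glmQLFTest, TMM, R 4.3.3), two-sided, in 1 fit of 6 libraries by group with 3 residual degrees of freedom. That fit shares 1 spread per gene among the groups. The mean chi-square per gene between the 2 libraries of a group was 9.5 with DMSO, 26 at 100 nM and 46.9 at 300 nM. Adjusted p-values at 300 nM may therefore be too small. Alternatives used DESeq2 1.42.0, limma 3.58.1 on the deposited matrix, other filters and scalings, left-out libraries, the replicate number as a block, and offsets per library from robust spline fits (5 degrees of freedom each) on exon length and GC content of the longest transcript, centred so that TMM scaling is kept. The members and gene lists were chosen with earlier results of these data known. Named genes are the members, SETD2 and up to 4 called genes a list with the smallest adjusted p at 300 nM, and some genes of these pathways are not reported here. SREBF1, SCAP and MSMO1 were added after their values were seen. Markers were described as summed levels. A count of 0 allows up to 3 reads, or 0.031 to 0.0336 CPM, for counting error only and if reads are counted independently. With most small counts even, as given above, the limit may be higher.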

Additional observations from a re-analysis of the deposited data

How the results depend on the processing

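Directions of the 8 genes over 3 comparisons held under DESeq2's size factors, the DESeq2 test, limma on the deposited matrix, no low-count filter and the fit of only the 2 groups compared, except for the small difference of FDFT1 between the doses (0.02 with DESeq2's factors, its test and limma). At most 2 of 24 results lay on another side of the threshold in any of these, among them SQLE between the doses (-0.20 and adjusted p = 0.108 with DESeq2, -0.21 and 0.165 with limma). Signs turned with the offsets for length and GC content: STARD4 at 100 nM was at 0.46, and at 300 nM against DMSO HMGCS1 was at 0.46, IDI1 at 0.23 and DHCR7 at -0.50. The number of members called lower at 300 nM was then 2 (32.8% of all genes). The cause was not tested. A minimum change of 1.5-fold left 3 members higher at 100 nM, where 4470 of 23160 genes were. At 300 nM against DMSO it left 1 member higher, FDFT1. INSIG1, HMGCS1, IDI1 and STARD4 also passed it as lower there (0.577, 0.649, 0.625 and 0.293 of DMSO). Without that minimum 34.8% of all genes were higher and 31.1% lower at 300 nM. Of all genes the minimum left 2826 lower at 100 nM and 2642 higher at 300 nM against 100 nM. Leaving out each library in turn gave either sign for STARD4 at 100 nM (log2 -0.33 to 0.07) and DHCR7 at 300 nM (-0.05 to 0.20). It also gave either sign for FDFT1 between the doses (-0.14 to 0.03), and kept the sign of every other member result. For all genes it gave 2883 to 5036 lower at 100 nM (fewest without 100 nM replicate 1) and 2896 to 4901 higher between the doses (fewest without 100 nM replicate 2). Without 300 nM replicate 1, DHCR7 at 300 nM against DMSO was at -0.05 and not called. A lone library is assumed to vary like the other groups.

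Replicate numbers shared between groups are not said to pair the libraries, and deviations from the group means correlated at 0.020, 0.008 and 0.075. With the replicate block, 7 members were higher at 100 nM, 3 higher and 4 lower at 300 nM, and 5 lower between the doses, and DHCR7 at 100 nM was called (0.23, adjusted p = 0.026). Of all genes 6179 were then higher and 5140 lower at 100 nM, against 5564 and 4331 without it. Without the block 34.8% of all genes were higher and 31.1% lower at 300 nM against DMSO, and 23.4% were lower between the doses. With the block and the offsets together the values were again 0.46, 0.46, 0.23 and -0.50, with 2 members lower at 300 nM. With the offsets alone 32.8% of all genes were lower there.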
